A study of Mus musculus with 8 samples.

Results

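Haemoglobin transcripts and Alas2 were followed by RNA sequencing of whole tumours, 8 in all, from the mouse mammary carcinoma line 4T1. The genes were the 5 named rows Hba-a1, Hba-a2, Hbb-bs, Hbb-bt and Alas2 of a table of 32098 genes, chosen by name as the globins of adult red cells and the red cell enzyme of heme synthesis. In 4 tumours radiation was given together with an immune checkpoint inhibitor (RI, replicates 1, 2, 4 and 5), and in 4 the inhibitor was given alone (ICI, replicates 1, 2, 3 and 4). The label for genotype was WT in all 8, and 4T1 is a single established line. The inhibitor, the radiation dose, the host strain, the age of the animals and the position of an RI tumour relative to the irradiated field are not given in the labels, and the design text speaks of 3 replicates per group where 4 are listed. Whether the tumours of a group came from different animals is not stated, so a p-value here measures the spread among these samples, part of which may be technical.

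Haemoglobin is a tetramer of alpha and beta globin chains, each holding a heme group. In the mouse Hba-a1 and Hba-a2 encode the adult alpha chain and Hbb-bs and Hbb-bt the adult beta chain, and Alas2 encodes the aminolevulinate synthase of erythroid cells, the first enzyme of heme synthesis there. Maturing red cell precursors make these transcripts under GATA1 and KLF1, and the reticulocyte, which has lost its nucleus, still carries them into the blood. In a tumour sampled whole, globin RNA is therefore mostly read as RNA of blood or of erythroid precursors in the sample, and in bulk RNA fewer such cells and less RNA per cell cannot be told apart.

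The alpha genes lie on chromosome 11 (Hba-a1 at 32283511 to 32284465 and Hba-a2 at 32296489 to 32297298, plus strand), and the beta genes on chromosome 7 (Hbb-bt at 103812524 to 103813996 and Hbb-bs at 103826534 to 103828096, minus strand). Alas2 lies on chromosome X at 150547375 to 150570638, plus strand. All are protein-coding genes of GENCODE M21 on GRCm38, with the identifiers ENSMUSG00000069919 (Hba-a1), ENSMUSG00000069917 (Hba-a2), ENSMUSG00000052305 (Hbb-bs), ENSMUSG00000073940 (Hbb-bt) and ENSMUSG00000025270 (Alas2). The copies of each chain are near identical. The open reading frames of Hba-a1 and Hba-a2 matched at 428 of 429 bases, and those of Hbb-bs and Hbb-bt at 443 of 444, whereas alpha and beta (Hba-a1 and Hbb-bs) shared 57.8% of aligned positions. A fragment inside the coding part can thus fit both copies, how the authors' counting shared such fragments is not given in the sources used here, and the copies were also summed. The reference assembly carries the beta haplotype with Hbb-bs and Hbb-bt, and since the host strain is not given, the beta alleles of these animals are not known here.

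The sequence just before each start shows what the genes have in common besides their coding parts. The windows below are the 250 bases before the RefSeq start (GRCm38.p6), 5′ to 3′ on the gene's strand. GENCODE places the outermost start of some of these genes inside them. Capitals mark matches on either strand to 4 kinds of word known from erythroid promoters. These were the GATA word (AGATAA, where the first base may also be T and the last base also G), the word CACCC of KLF factors, the CCAAT box and the TATAA box. On the opposite strand, CACCC appears as GGGTG and the CCAAT box as ATTGG.
Hba-a1, chr11:32283422-32283671, plus strand: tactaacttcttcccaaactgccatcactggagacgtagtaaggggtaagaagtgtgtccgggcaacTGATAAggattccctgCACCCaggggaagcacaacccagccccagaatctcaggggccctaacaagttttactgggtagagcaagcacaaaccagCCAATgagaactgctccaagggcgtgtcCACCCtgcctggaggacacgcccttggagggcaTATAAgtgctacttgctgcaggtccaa
Hbb-bs, chr7:103827929-103828178, minus strand: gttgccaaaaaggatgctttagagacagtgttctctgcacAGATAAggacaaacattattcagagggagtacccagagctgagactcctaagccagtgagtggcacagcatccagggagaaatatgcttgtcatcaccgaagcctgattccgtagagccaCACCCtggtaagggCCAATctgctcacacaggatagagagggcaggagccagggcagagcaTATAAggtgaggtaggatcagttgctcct
Hbb-bt, chr7:103813924-103814173, minus strand: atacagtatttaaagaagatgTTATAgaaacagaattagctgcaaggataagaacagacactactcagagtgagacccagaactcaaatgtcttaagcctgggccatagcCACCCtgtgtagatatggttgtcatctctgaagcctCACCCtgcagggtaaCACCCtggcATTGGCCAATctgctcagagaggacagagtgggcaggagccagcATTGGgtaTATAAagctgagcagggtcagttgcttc
Alas2, chrX:150547167-150547416, plus strand: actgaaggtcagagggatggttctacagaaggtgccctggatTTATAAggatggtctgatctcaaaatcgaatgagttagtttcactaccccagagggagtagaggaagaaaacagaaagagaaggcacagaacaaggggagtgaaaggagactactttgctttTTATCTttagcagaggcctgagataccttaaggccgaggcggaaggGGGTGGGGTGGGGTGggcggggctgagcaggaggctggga
The window of Hba-a2 matched that of Hba-a1 at 97.6% of aligned positions and held the same words, so it is not printed. The windows of Hbb-bs and Hbb-bt matched at 69.3%, far less than their coding parts. In the 4 globins the TATAA nearest the gene began 27 to 30 bases before the start. Hba-a1, Hbb-bs and Alas2 each held 1 GATA word and Hbb-bt had none, while Hba-a1 had 2 CACCC matches, Hbb-bs 1, Hbb-bt 3 and Alas2 3. CCAAT was matched once in Hba-a1 and in Hbb-bs, in 3 places in Hbb-bt, of which 2 lie back to back on opposite strands, and in none in Alas2, whose TATAA matches are 2 overlapping readings of 1 place. These words are common. Of 32851 windows of this length 26.5% held a GATA word, 52.0% CACCC, 33.8% CCAAT and 22.8% TATAA, on either strand, so the matches describe the letters and identify no binding site.

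Globin RNA was lower in every RI tumour than in every ICI tumour, and RI 5 held almost none. Summed over the 4 copies it averaged 69.7 ± 47.4 FPKM in RI and 579 ± 357 FPKM in ICI (SD, n = 4 each), so the ICI mean was 8.31 times the RI mean. The values were 101.9, 98.4, 78.2 and 0.289 FPKM in RI 1, 2, 4 and 5, against 1062, 208, 472 and 576 FPKM in ICI 1, 2, 3 and 4. The lowest ICI tumour, ICI 2, had 2.05 times the level of the highest RI tumour, RI 1. RI 1, RI 2 and RI 4 lay close together, the highest 1.30 times the lowest, whereas within ICI the highest was 5.09 times the lowest. FPKM scales fragments to the exon length of the gene and to the size of the library, so levels of different genes can be compared.

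**Figure D1:**
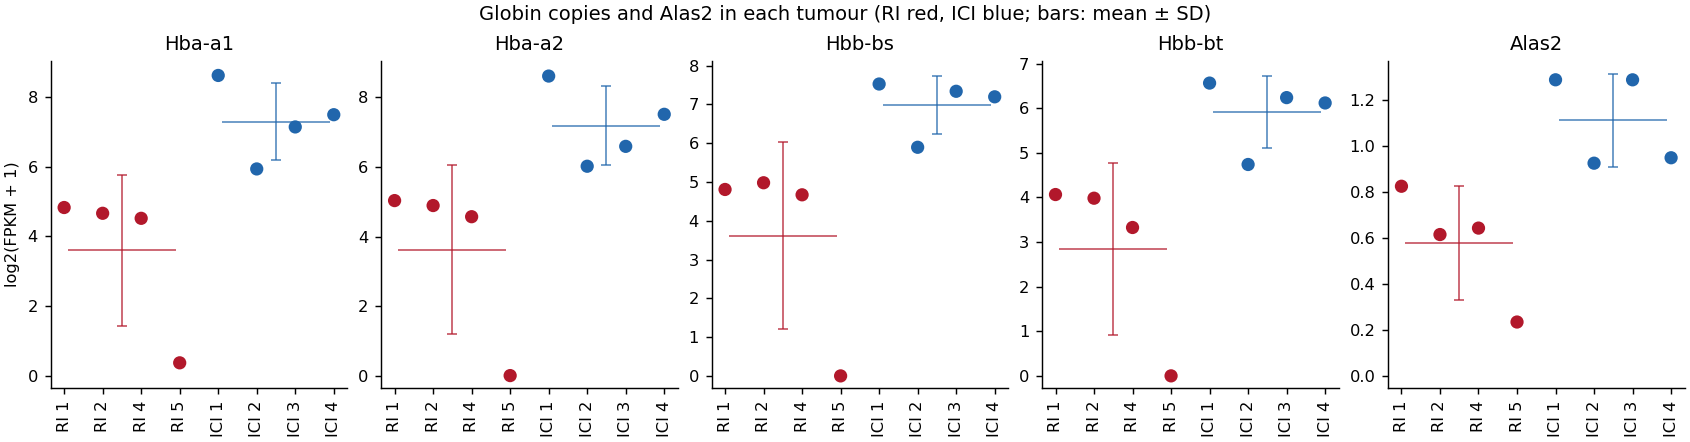
Level of each globin copy and of Alas2 by tumour, as log2(FPKM + 1) on the vertical axis, with RI tumours in red at the left of each panel and ICI tumours in blue at the right. Points are single tumours, horizontal lines are group means and vertical bars are SD (n = 4). In each panel all RI points lie below all ICI points, and RI 5 lies lowest.

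Each copy was read in 7 of the 8 tumours at more than 9 FPKM. Hba-a1 had 27.4, 24.4, 21.9 and 0.289 FPKM in RI 1, 2, 4 and 5, against 394, 60.3, 141 and 180 FPKM in ICI 1, 2, 3 and 4. Hba-a2 had 31.7, 28.7, 22.7 and 0 FPKM in RI 1, 2, 4 and 5, against 391, 63.9, 95.5 and 182 FPKM in ICI 1, 2, 3 and 4. For both alpha copies ICI 1 was the highest tumour and ICI 2 the lowest of its group, and the groups did not overlap.

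Hbb-bs had 27.0, 30.6, 24.4 and 0 FPKM in RI 1, 2, 4 and 5, against 183, 58.5, 161 and 146 FPKM in ICI 1, 2, 3 and 4. Hbb-bt had 15.7, 14.8, 9.03 and 0 FPKM in RI 1, 2, 4 and 5, against 93.7, 25.7, 74.5 and 68.5 FPKM in ICI 1, 2, 3 and 4. The beta copies also did not overlap between groups, and ICI 2 was again the lowest ICI tumour. The ICI tumours spread less in beta than in alpha, the highest being 3.29 times the lowest for the beta copies summed and 6.32 times for the alpha copies summed. All 4 copies thus lay lower in RI in all 4 tumours, a separation that 11.2% of the 13439 genes tested also showed in this direction.

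The test across all genes called 2 of the 4 copies with all tumours in the fit. It was limma on log2(FPKM + 1), with Benjamini-Hochberg adjustment over the 13439 genes that reached 1 FPKM in at least 4 tumours. It called 17.7% of those genes in either direction and 6.6% as lower in RI. Hba-a1 fell by 3.71 on the log2 scale (SE 1.03, adjusted p = 0.0428) and Hbb-bt fell by 3.07 (SE 0.89, adjusted p = 0.0476). Hba-a2, with a difference of −3.56 (SE 1.14), had an adjusted p of 0.0624 in limma, and Hbb-bs, with −3.37 (SE 1.07), had 0.0618. With 1 tumour left out, Hba-a1 and Hbb-bt passed in 1 of 8 fits, that without RI 5, and leaving out any of the other 7 tumours ended both calls (limma adjusted p up to 0.104 and 0.114). The copies lay on both sides of the threshold with differences of like size, so the calls do not separate them.

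With the copies of each chain summed to 1 feature, neither chain passed. The alpha copies averaged 39.3 ± 26.7 FPKM in RI and 377 ± 289 FPKM in ICI (SD, n = 4 each), a log2 difference of −3.86 (SE 1.23, limma adjusted p = 0.0629). The beta copies averaged 30.4 ± 20.9 FPKM in RI and 203 ± 83.2 FPKM in ICI (SD, n = 4 each), a log2 difference of −3.52 (SE 1.19, limma adjusted p = 0.0721). In that fit 6.59% of the features were called lower in RI. RI 5 lay far below the other 3 RI tumours in both chains.

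Without RI 5 both chains passed the test with smaller differences. The other 3 RI tumours averaged 52.3 ± 7.28 FPKM of alpha (SD, n = 3), or 13.9% of the ICI mean, and 40.5 ± 6.25 FPKM of beta (SD, n = 3), or 20.0% of the ICI mean. The alpha copies summed then fell by 2.52 on the log2 scale (SE 0.55, limma adjusted p = 0.0416) and the beta copies summed by 2.18 (SE 0.39, limma adjusted p = 0.0360), where 2.85% of features were called lower in RI. All 4 single copies also passed without RI 5, with limma adjusted p from 0.0358 for Hbb-bs to 0.0472 for Hba-a2, against 2.87% of genes called lower in RI. The fits with and without RI 5 share the other 7 tumours and are not independent.

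Libraries that stood apart touched these values on both sides. ICI 1 and ICI 4, the 2 tumours highest in globin, held lung epithelial genes, a list put together after the values were seen. Sftpc, the lung surfactant protein C, had 0 FPKM in RI 1, 2 and 4 and 0.204 in RI 5, against 2887, 0.0240, 0.184 and 707 FPKM in ICI 1, 2, 3 and 4. The 10 lung genes summed to 0.0822 to 1.37 FPKM in RI, against 8846 in ICI 1, 1040 in ICI 4 and 0.966 and 0.891 in ICI 2 and 3. The part of these transcripts in the globin difference was not tested.

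Without ICI 1 and ICI 4 the difference held its sign, and neither chain passed, as with all tumours. The calls of the single copies Hba-a1 and Hbb-bt were lost (limma adjusted p = 0.245 and 0.252). In ICI 2 and ICI 3, which lacked lung transcripts, the globins summed to 208 and 472 FPKM, both above every RI tumour. Without ICI 1 and ICI 4 the log2 difference was −3.04 for alpha and −3.13 for beta, with limma adjusted p of 0.316 and 0.311. Without RI 5 as well, the differences were −1.70 (SE 0.29) for alpha and −1.78 (SE 0.43) for beta, with limma adjusted p of 0.0542 and 0.0708 among 12464 genes. Of those 12464 genes 0 passed by limma, 3429 had p under 0.05 before adjustment, and voom, a limma fit on recovered fragments, called 1551 of 12382. Without ICI 1 and RI 5, the highest and the lowest globin tumour, the differences were −2.06 for alpha and −1.98 for beta, with limma adjusted p of 0.0184 and 0.0218. That fit was not planned beforehand. It leaves out both extremes of the values tested, which narrows their spread, so its adjusted p is no support.

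**Figure D2:**
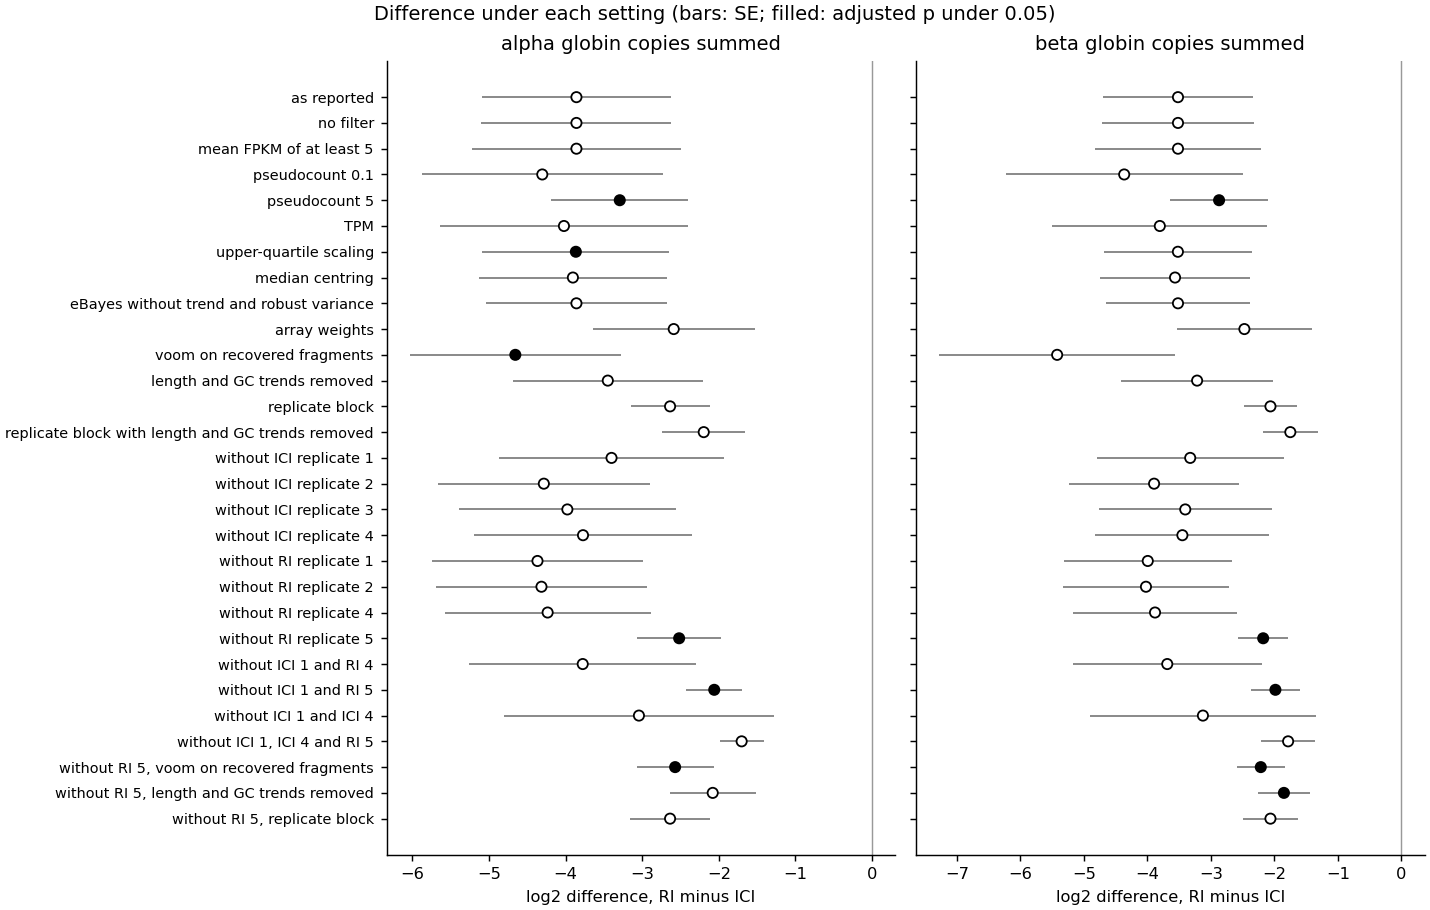
Log2 difference RI minus ICI of the alpha copies summed (left) and the beta copies summed (right) under each setting of the fit, with bars of 1 SE and filled points where the adjusted p is under 0.05. Every point lies below 0, and leaving out RI 5 alone moves the point from −3.86 to −2.52 for alpha and from −3.52 to −2.18 for beta, with shorter bars.

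The globins of RI 5 were at the limit of detection. Of about 42622700 fragments, the greatest number of any of the 8 tumours, 10 were assigned to Hba-a1 and 0 to Hba-a2, Hbb-bs and Hbb-bt. RI 1, RI 2 and RI 4 had 2033, 2341 and 2114 globin fragments from shallower libraries, and ICI 1, 2, 3 and 4 had 25939, 6237, 12988 and 18181. A count of 0 allows up to 3 fragments, or 0.106 FPKM of Hba-a2, 0.0916 of Hbb-bs and 0.1001 of Hbb-bt in RI 5, which covers counting error only. Against that limit RI 5 was at least 606-fold lower than the lowest ICI tumour in Hba-a2, at least 638-fold lower in Hbb-bs and at least 257-fold lower in Hbb-bt. Against the lowest of the other RI tumours it was at least 216-fold lower in Hba-a2, 267-fold in Hbb-bs and 90.2-fold in Hbb-bt.

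The globins stood alone in RI 5 among genes well expressed in every other tumour. Of 6160 genes with at least 5 FPKM in each of the other 7 tumours, 4 lay more than 8-fold below the lowest of those tumours in RI 5, and these were the 4 globin copies. The next gene, Mir1898, lay 3.78-fold below, at 2.54 FPKM in RI 5. The same search in the other 7 libraries found 2 genes in RI 4, neither a globin, and 0 in each of the others. Both limits of the search were set after the values were seen, and genes under 5 FPKM in any other tumour were outside it. One of these, Mir1943, was also at 0 in RI 5, against 6.09, 9.37 and 9.04 FPKM in RI 1, 2 and 4 and 1.02 to 6.24 FPKM in ICI. Nprl3 and Mpg, the genes next to the alpha cluster, had 7.35 and 4.46 FPKM in RI 5, each the highest of the 8 tumours. The alpha globin pseudogene Hba-ps4 had 0, 0.139, 0.0615 and 0.577 FPKM in RI 1, 2, 4 and 5, against 0.111 to 1.02 in the ICI tumours. RI 5 was thus the highest RI tumour in this pseudogene, at a low level. Among the genes searched, so low a level in RI 5 was thus seen in the 4 globin copies only, and its cause was not tested.

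**Figure D3:**
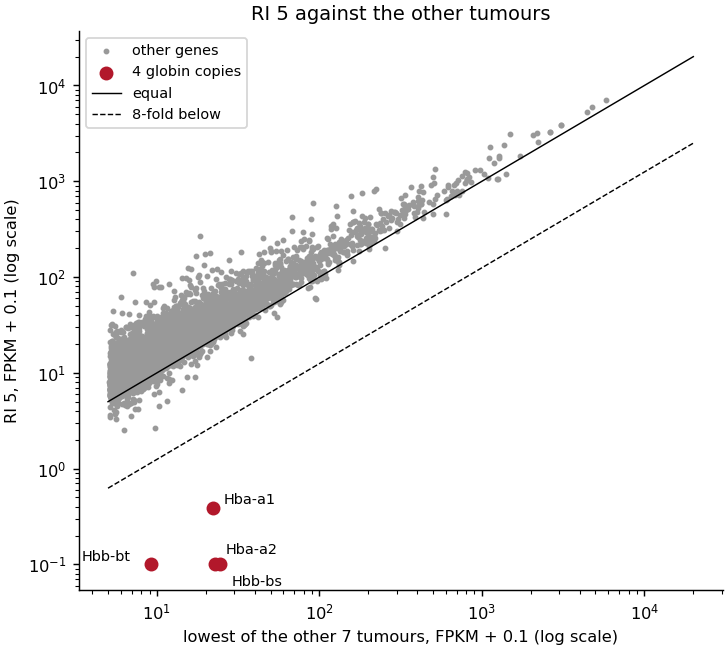
Level in RI 5 (vertical axis) against the lowest level in the other 7 tumours (horizontal axis), both as FPKM + 0.1 on log axes, for 6160 genes with at least 5 FPKM in each of the other tumours. Grey points are other genes, red points the 4 globin copies, the solid line equality and the dashed line an 8-fold lower level. Only the 4 globin copies lie below the dashed line.

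The spread of the globins within a group was set by this tumour in RI. On the log2 scale the SD over the 4 RI tumours was 1.92 for Hbb-bt and 2.42 for Hba-a2, ranks 20 and 12 among 13439 genes, where the median gene had 0.226. Over RI 1, 2 and 4 it was 0.16 for Hba-a1 and Hbb-bs, 0.24 for Hba-a2 and 0.40 for Hbb-bt, with a median gene of 0.210. Within ICI it was 0.74 for Hbb-bs, 0.81 for Hbb-bt, 1.11 for Hba-a1 and 1.13 for Hba-a2, against a median of 0.280, with ranks between 377 and 997. The ICI tumours thus varied in globin more than in most genes, whereas RI 1, 2 and 4 varied about as the median gene does, apart from Hbb-bt.

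Alas2, the erythroid enzyme, was low in all tumours and differed less than the globins. It had 0.770, 0.530, 0.561 and 0.176 FPKM in RI 1, 2, 4 and 5, against 1.44, 0.898, 1.44 and 0.929 FPKM in ICI 1, 2, 3 and 4. In FPKM all RI values lay below all ICI values, the highest RI tumour (RI 1) being close to the lowest ICI tumour (ICI 2), and RI 5 was again lowest. With TPM, which scales every library to the same sum, the groups were not fully separate (log2 difference −0.73, exact permutation p = 0.0857). These levels rested on 50, 41, 49 and 18 fragments in RI 1, 2, 4 and 5, against 114, 87, 127 and 95 in ICI 1, 2, 3 and 4. The RI mean of 0.509 ± 0.247 FPKM was 43.3% of the ICI mean of 1.18 ± 0.304 FPKM (SD, n = 4 each). Since 1 FPKM was reached only in ICI 1 and ICI 3, Alas2 was outside the fit across genes, and its difference of −0.53 in log2(FPKM + 1), a scale that understates changes of low genes, gave an exact permutation p of 0.0286, two-sided, the smallest that 70 regroupings can give. In limma without the filter it had an adjusted p of 0.170, and among all 32098 genes 6.06% had every RI value below every ICI value.

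The proportions of the globin copies overlapped between the groups in the 7 tumours that had them. The alpha copies were 1.38, 1.17 and 1.33 times the beta copies in RI 1, 2 and 4, against 2.83, 1.48, 1.00 and 1.69 times in ICI 1, 2, 3 and 4. Hbb-bs was 1.71, 2.06 and 2.71 times Hbb-bt in RI 1, 2 and 4, against 1.96, 2.28, 2.16 and 2.13 times in ICI 1, 2, 3 and 4. Hba-a1 was 0.865, 0.849 and 0.964 times Hba-a2 in RI 1, 2 and 4, against 1.01, 0.944, 1.47 and 0.988 times in ICI 1, 2, 3 and 4. ICI 1 had the most alpha per beta and ICI 3 the most Hba-a1 per Hba-a2, and the groups overlapped in all 3 ratios. In exact two-sided permutation tests of the log2 ratios over all 8 tumours, with 0.1 FPKM added to each side, p was 0.886 for alpha over beta, 0.971 for Hba-a1 over Hba-a2 and 0.514 for Hbb-bs over Hbb-bt. The RI 5 ratios in these tests were set by the 0.1 FPKM added. Without RI 5 the log2 difference was −0.34 for alpha over beta (exact permutation p = 0.457) and −0.28 for Hba-a1 over Hba-a2 (exact permutation p = 0.114). For Hbb-bs over Hbb-bt it was −0.0069. None of these tests shows that the proportions are equal.

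Alas2 per globin ran the other way. Its FPKM was 0.00756, 0.00539 and 0.00717 of the summed globins in RI 1, 2 and 4, against 0.00136, 0.00431, 0.00305 and 0.00161 in ICI 1, 2, 3 and 4. With RI 5, where the globins were almost missing and the ratio was 0.608, the log2 ratio was higher in RI by 3.24 (exact permutation p = 0.0286, adjusted over the 4 ratios 0.114). Without RI 5 the difference was 1.61, with p = 0.0571 in the exact permutation test, the smallest that 35 regroupings can give. The difference in Alas2 was thus smaller than that in the globins in these tumours, although the ratio did not pass after adjustment.

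**Figure D4:**
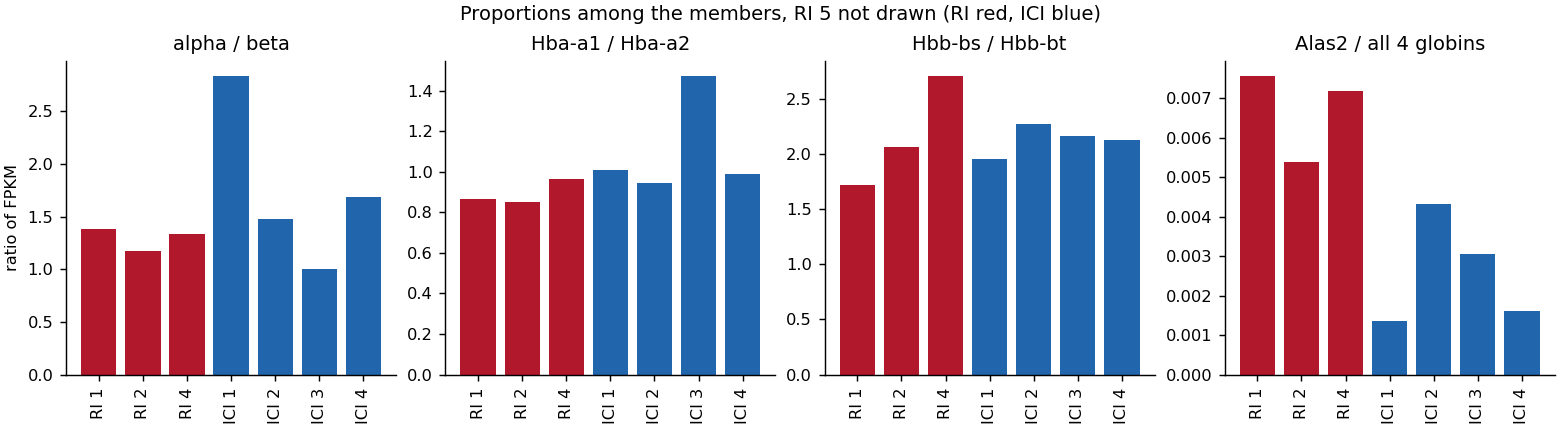
Ratios of FPKM among the globins and Alas2 by tumour on a linear axis from 0, with RI tumours in red at the left and ICI tumours in blue at the right. RI 5 is left out because 3 of its globin copies were at 0. Alas2 per globin is higher in the 3 RI tumours drawn than in the 4 ICI tumours, and the other 3 ratios overlap.

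Other globins and most transcripts particular to the red cell surface were low, while membrane genes that other cells also express were read at higher levels. Of 12 further globins and globin chaperones looked for, 4 had values, and the embryonic globins Hba-x, Hbb-y and Hbb-bh1 and the alpha chaperone Ahsp were not analysed here. Mb, the oxygen store of muscle, averaged 2.64 ± 2.42 FPKM in RI and 1.17 ± 1.26 FPKM in ICI (SD, n = 4 each), with a limma adjusted p of 0.410, and 0 of the 2 tested genes of that list passed. Of 18 red cell membrane and skeleton genes with values, 10 stayed under 1 FPKM in all tumours. Of the 4 tested 0 passed in either direction, where 17.7% of all genes tested were called. Their median log2 difference was 0.35, where that of all genes tested was 0.0115. Slc4a1, the anion exchanger of the red cell membrane, averaged 0.637 ± 0.478 FPKM in RI and 0.123 ± 0.0595 FPKM in ICI (SD, n = 4 each), with p = 0.0857 in an exact permutation test. Aqp1, a water channel of red cells and of capillary endothelium, was the highest of the list at 52.9 ± 15.2 FPKM in RI and 28.6 ± 12.3 FPKM in ICI (SD, n = 4 each), and its log2 difference was 0.90 (limma adjusted p = 0.0582).

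Erythroid regulators showed no call. Values were at hand for 13, of which 4 were tested (Zfpm1, Lmo2, Ldb1 and Tfrc). Of those 4, 0 passed in either direction (median log2 difference 0.074), where 17.7% of all genes tested were called. So few genes cannot be set against that share. The others lay below the filter, each with a lower log2 mean in RI, for some only through ICI 1. Of the 13439 genes tested 6572 were lower in RI, a share not worked out for genes below the filter. Among the regulators below the filter, Trim10 was at 0 FPKM in RI and at a trace of 0.0110 to 0.135 FPKM in ICI (exact permutation p = 0.0286, not adjusted). Of all 32098 genes 6.06% had every RI value below every ICI value. Gata1, the defining erythroid transcription factor, had 0.0304, 0.128, 0.0226 and 0.0289 FPKM in RI 1, 2, 4 and 5, against 0.884, 0.0102, 0 and 0.00964 FPKM in ICI 1, 2, 3 and 4. ICI 1 was thus the only tumour with more than a trace. Klf1, which drives adult beta globin, averaged 0.223 ± 0.236 FPKM in RI and 0.387 ± 0.224 FPKM in ICI (SD, n = 4 each). Epor, the erythropoietin receptor, had 0.149, 0.844, 0.0415 and 0.271 FPKM in RI 1, 2, 4 and 5, against 1.14, 0.150, 0.0959 and 0.130 FPKM in ICI 1, 2, 3 and 4. Ldb1, a cofactor of GATA1 that many tissues express, was the highest of the list at 20.5 ± 3.42 FPKM in RI and 34.0 ± 13.8 FPKM in ICI (limma adjusted p = 0.103). Of 11 enzymes and maturation genes of red cells tested 0 passed (median −0.0055), and the highest, Gpx1, which removes peroxide in most cells, averaged 289.9 ± 69.9 FPKM in RI and 216 ± 25.8 FPKM in ICI.

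Of 11 heme synthesis genes tested, 8 did not pass, 1 rose and 2 fell (median −0.086), where 17.7% of all genes were called. All cells with mitochondria carry out this pathway. Ppox, the penultimate enzyme of the pathway, fell to 6.46 ± 1.61 FPKM in RI, against 12.5 ± 2.46 FPKM in ICI (SD, n = 4 each, log2 difference −0.87, limma adjusted p = 0.0223). Slc25a37, the mitochondrial iron importer known for its role in erythroid cells, fell to 39.4 ± 4.88 FPKM in RI, against 58.5 ± 8.42 FPKM in ICI (−0.56, limma adjusted p = 0.0423). Abcb10, a mitochondrial transporter needed for heme formation in erythroid cells, rose to 4.53 ± 0.622 FPKM in RI, against 2.69 ± 0.228 FPKM in ICI (0.58, limma adjusted p = 0.0228). Without RI 5 the limma adjusted p was 0.0508 for Ppox, 0.0956 for Slc25a37 and 0.0571 for Abcb10, so none of the 3 passed. Of 8 fits with 1 tumour left out, Ppox passed in 6 (not without ICI 4 or RI 5), Abcb10 in 4 (not without ICI 4, RI 1, RI 2 or RI 5) and Slc25a37 in 1, that without ICI 1. Alas1, the housekeeping counterpart of Alas2, had 4.83, 4.49, 3.62 and 6.78 FPKM in RI 1, 2, 4 and 5, against 16.7, 3.06, 4.60 and 6.22 FPKM in ICI 1, 2, 3 and 4 (limma adjusted p = 0.586), with the groups overlapping apart from ICI 1. Fech, which inserts the iron, averaged 3.52 ± 0.256 FPKM in RI and 2.97 ± 0.139 FPKM in ICI (limma adjusted p = 0.286).

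Genes that clear haemoglobin and heme gave 1 call of 10, a share below the 17.7% of all genes called. Of 10 tested, Lrp1, the receptor for heme bound to hemopexin, rose to 53.1 ± 5.03 FPKM in RI, against 28.7 ± 3.92 FPKM in ICI (SD, n = 4 each, log2 difference 0.87, limma adjusted p = 0.0130, and at most 0.0479 with any 1 tumour left out), and 0 fell (median −0.069). Lrp1 is also a broad endocytic receptor of fibroblasts and macrophages. Hmox1, which breaks down heme, had 39.1, 120, 45.6 and 39.6 FPKM in RI 1, 2, 4 and 5, against 22.7, 115, 60.2 and 52.6 FPKM in ICI 1, 2, 3 and 4, with the groups overlapping throughout (limma adjusted p = 0.993). Cd163, the macrophage receptor for haemoglobin bound to haptoglobin, averaged 3.85 ± 3.59 FPKM in RI and 0.459 ± 0.348 FPKM in ICI (SD, n = 4 each), with p = 0.0571 in an exact permutation test. Fth1, the ferritin heavy chain, was the highest of the list at 648 ± 175 FPKM in RI and 725 ± 219 FPKM in ICI (limma adjusted p = 0.723).

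Markers of other cells that travel in blood or line its vessels were read beside the globins. Of 3 platelet genes tested 0 passed, where 17.7% of all genes tested were called. The platelet list summed to 32.5 to 85.4 FPKM in RI and 27.1 to 59.4 FPKM in ICI. Pf4, which made up most of that sum in every tumour but ICI 1, averaged 49.7 ± 24.2 FPKM in RI and 30.2 ± 18.1 FPKM in ICI. Ppbp averaged 2.31 ± 1.35 FPKM in RI and 1.45 ± 0.147 FPKM in ICI (SD, n = 4 each). All other platelet genes with values had the lower mean in RI, each with its highest value in ICI 1, and most were at low levels. Among them Itga2b averaged 0.909 ± 0.411 FPKM in RI and 2.46 ± 1.73 FPKM in ICI (limma adjusted p = 0.129). The platelet genes thus did not go 1 way. Of 8 endothelial genes tested 0 passed (median −0.76), with a sum of 26.7 to 76.5 FPKM in RI and 33.2 to 469 FPKM in ICI. Cldn5 reached 2.35 to 10.1 FPKM in RI and 5.62 to 200 FPKM in ICI, the highest being ICI 1. Pecam1 had 8.54, 14.6, 5.31 and 5.63 FPKM in RI 1, 2, 4 and 5, against 28.3, 4.33, 5.36 and 6.29 FPKM in ICI 1, 2, 3 and 4, so ICI 1 alone stood high in its group.

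Some neutrophil and plasma cell markers fell in RI, where 6.6% of all genes tested were called lower. Of 11 neutrophil genes tested 2 fell and 0 rose. Camp, 1 of the 11, passed the filter only through the ICI tumours. It was at 0 to 0.123 FPKM in RI, so no median is given. The list summed to 112 to 287 FPKM in RI, against 23816 in ICI 1 and 273 to 731 in ICI 2, 3 and 4. Mmp9 alone of the tested genes of the list had a log2 difference above 0 (1.05, limma adjusted p = 0.104). It averaged 114.9 ± 59.8 FPKM in RI and 55.7 ± 30.6 FPKM in ICI (SD, n = 4 each), and made up most of each RI sum. S100a9, a subunit of calprotectin, had 10.2, 45.7, 19.0 and 6.20 FPKM in RI 1, 2, 4 and 5, against 12310, 187, 134 and 352 FPKM in ICI 1, 2, 3 and 4 (limma adjusted p = 0.0380, and 0.0911 without RI 5), and its partner S100a8 fell as well (limma adjusted p = 0.0456). ICI 1 stood far above the other 7 tumours, and the next was ICI 4. Of 5 plasma cell genes tested, Igkc and Igha fell (limma adjusted p = 0.0477 and 0.0115) and 0 rose. Iglc1, which passed the filter only through the ICI tumours, had 0, 0, 0.303 and 0.827 FPKM in RI 1, 2, 4 and 5, against 4.01, 3.60, 1.92 and 4.24 FPKM in ICI 1, 2, 3 and 4, and its test is not used. The list summed to 5.53 to 40.5 FPKM in RI and 65.4 to 1502 FPKM in ICI. RI 5, almost without globin, was the highest RI tumour in plasma cell markers at 40.5 FPKM. With 1 tumour left out, Igha passed in all 8 fits, and Igkc, S100a8 and S100a9 in 2 each, those without ICI 1 or ICI 3. The part of these cells in the globin difference was not tested.

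**Figure D5:**
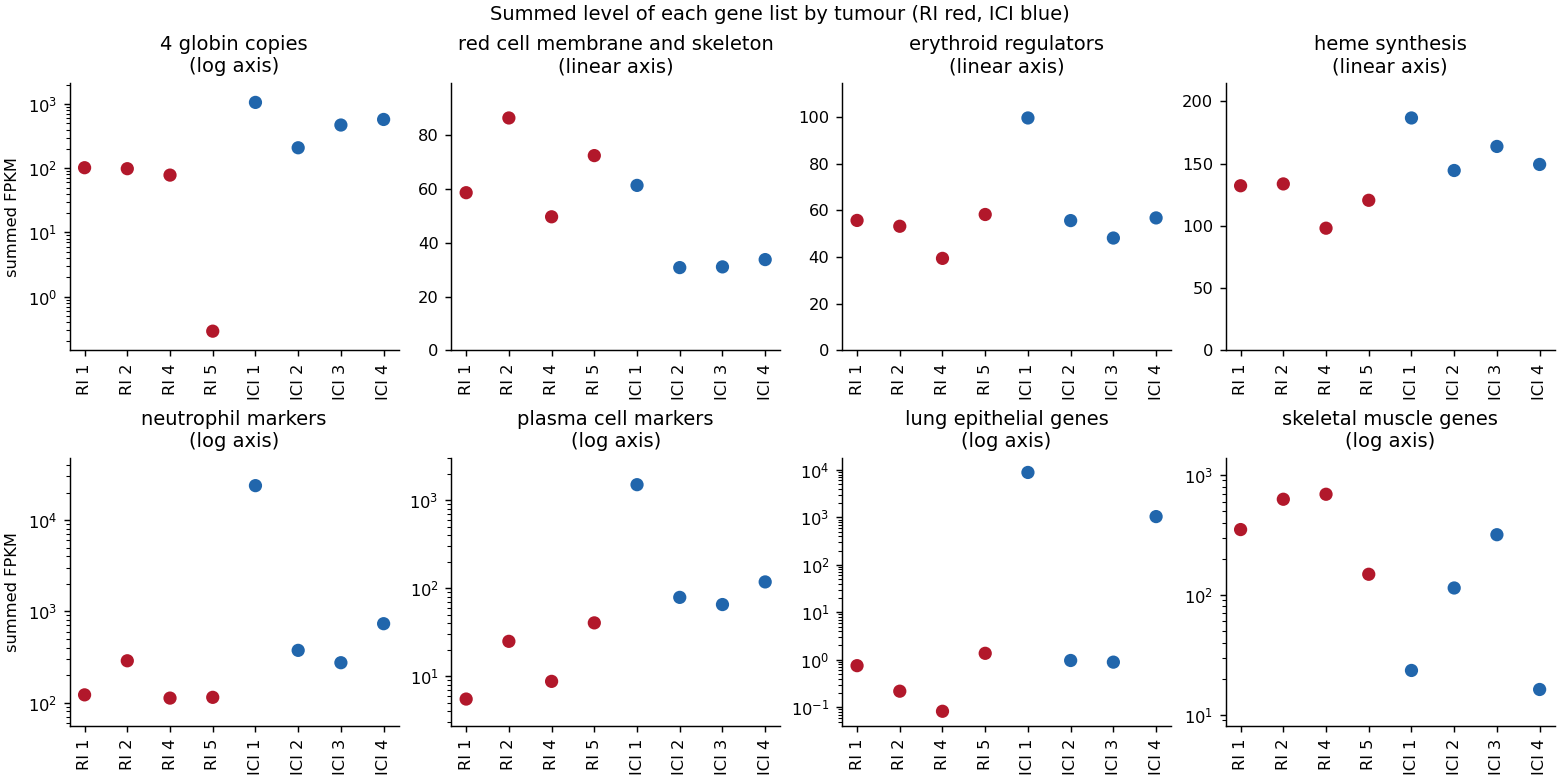
Summed FPKM of the 4 globin copies and of 7 gene lists by tumour, with RI tumours in red at the left and ICI tumours in blue at the right, on a log axis where the values span more than 5-fold and otherwise on a linear axis from 0. ICI 1 is the highest tumour for the globins, neutrophil markers, plasma cell markers and lung genes, and ICI 4 is second for lung genes. Within RI, RI 5 is the lowest tumour for the globins and the muscle genes and the highest for plasma cell markers.

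The globin copies are short, with 667 to 812 exon bases. After each library's trends on exon length and GC content were removed, the log2 difference was −3.45 for alpha (limma adjusted p = 0.0801) and −3.22 for beta (0.0872), and without RI 5 it was −2.08 (0.0536) and −1.85 (0.0355). All 4 differences stayed below 0 and nearer to it than with the trends in place.

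Which genes followed the globins from tumour to tumour depended on RI 5. Likeness was taken as Pearson's r with the summed globins over the 8 tumours, on log2(FPKM + 1) with each group's mean removed, as a description across tumours that share libraries and depths. The 8 closest of the genes tested were Mir1943 (0.961), Atad2b (0.937), Ago1 (0.933), Kmt2a (0.933), Mir1898 (0.916), Ccr2 (0.910), Sp4 (0.896) and Hook3 (0.884). Each had its lowest RI value in RI 5, as with Ccr2, the receptor of monocyte chemokines, at 4.68, 4.24, 2.73 and 0.288 FPKM in RI 1, 2, 4 and 5, against 3.57, 2.64, 2.82 and 1.65 FPKM in ICI 1, 2, 3 and 4. Over the 7 tumours without RI 5 the r was 0.865 for Mir1943 and between 0.180 and 0.678 for the others, so for most the likeness rested on that tumour. Ranked over those 7 tumours, the 8 closest were all different, namely Prrg2 (0.994), Ccdc120 (0.991), Sgk2 (0.989), Dpep2 (0.984), Id1 (0.980), Zscan29 (0.979), Hid1 (0.976) and Slc49a4 (0.975), a ranking added after the values were seen. None of the 16 genes is among the red cell lists used here. The 4 globin copies themselves had r of 0.982 to 0.992 with their sum over 8 tumours and 0.911 to 0.994 over 7.

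The libraries ran from 27013100 to 42622700 fragments, as worked out from the steps in the low values. RI 4 stood apart in the FPKM summed over all genes, at 717092, against 358243 (RI 5) to 494399 (ICI 4) in the other tumours. The epithelial keratins of the labelled tumour line were present in every tumour, Krt8 at 412 to 792 FPKM in RI and 468 to 1064 FPKM in ICI, and Krt18 at 333 to 577 FPKM in RI and 438 to 877 FPKM in ICI. Epcam, another epithelial marker, was low, at 0 to 1.06 FPKM in RI and 0.0372 to 5.02 FPKM in ICI.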

How the data were processed

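The authors deposited FPKM in a single table, a column for each tumour. Per the submitters' processing notes, HISAT2 and GRCm38 (mm10) were used, without versions. How fragments were counted, with which annotation, and how gene copies shared them, is not given in the sources used here. Groups and replicate numbers came from the sample titles.

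The 13439 genes that reached 1 FPKM in 4 or more tumours were compared as log2(FPKM + 1) by limma 3.58.1 in R 4.3.3 (lmFit, then trended, robust eBayes), two-sided, with Benjamini-Hochberg adjustment over all of them and a threshold of 0.05. A second fit replaced Hba-a1 with Hba-a2, and Hbb-bs with Hbb-bt, by their sums. Every adjusted p for a gene is from limma unless it is named otherwise. Alas2, genes below the filter and the 4 log2 ratios (0.1 FPKM added to each side) were tested by exact permutation over 70 regroupings (scipy 1.17.1). Differences are RI minus ICI, and means and SDs are of FPKM. The fit was tested on simulated data for 13439 genes. A shift of 1 log2 unit was called for 55.4% of genes that had it, a shift of 2 units for 90.6%, and 3.92% of the calls were false. The simulated noise was normal and independent between genes, without outlying libraries, so these shares need not hold for these tumours.

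GENCODE M21 (GRCm38) held the identifiers of 31407 of the 32098 genes and gave their coordinates and exon lengths. FPKM times exon length came out within 0.05 of a whole number of fragments for 98.6% to 98.8% of values of up to 50 fragments, which gave depths and fragment counts. A floor is 3 fragments in 1 library. All pairs of libraries within a group differed beyond sampling noise (lowest chi-square per gene 37.1). Upstream windows and their words came from RefSeq sequences of GRCm38.p6. Open reading frames were the longest ones in GENCODE transcripts, in place of protein sequences, which were not used here.

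The genes studied and the 10 gene lists were chosen with earlier results of these data known. Named were the 5 genes, of each list the genes that passed (up to 5) and the one with the highest mean, a fixed set of red cell and marker genes, of which some are not reported here, and the 8 genes most like the globins. Lists of lung, skeletal muscle and globin neighbour genes, together with Cldn5 and Epcam, were chosen after their values were seen. Camp, Mmp9 and Trim10 were also named after their values were seen. The settings tried are given in the closing section. Same-numbered RI and ICI tumours had correlations of their deviations from the group means between −0.124 and −0.0923 over genes, so the numbers were not taken as pairs.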

Additional observations from a re-analysis of the deposited data

Results flagged for a closer look

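Single tumours lay far from the other 3 of their group. The measure is the gap to the nearest other tumour as a share of the group's whole range on the log2 scale, set against Dixon's 95% critical value for 4 samples, and chance alone gives about 1 in 20 groups. How many groups were examined is not given here, so the flags cannot be set against that share. RI 5 stood apart in Hba-a1 (0.930), Hba-a2 (0.908), Hbb-bs (0.938), the alpha copies summed (0.928) and the beta copies summed (0.923), and so in the ratios of alpha to beta (0.859), Hba-a1 to Hba-a2 (0.917) and Alas2 to globins (0.939). Hbb-bt was not flagged. The RI 5 ratios of alpha to beta and of Hba-a1 to Hba-a2 were set by the 0.1 FPKM added to each side. In the ratio of Hba-a1 to Hba-a2, ICI 3 stood apart as well (0.852). Among red cell genes at trace levels, ICI 1 stood apart in Gata1 (0.984) and Epor (0.929), and RI 2 in Gata1 (0.922). RI 2 also stood apart in Hmox1 (0.866), ICI 1 in Igkc (0.832), and RI 5 in the lung gene Sftpc (1) at 0.204 FPKM, where the other RI tumours had 0. Those ties at 0 fix the Sftpc measure at 1 whatever the level in RI 5.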

How the results depend on the processing

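For the alpha and the beta copies summed, all 28 other settings gave a lower level in RI. Of these, the fits without ICI 1 and RI 5, without ICI 1 and ICI 4, and without ICI 1, ICI 4 and RI 5 were not planned beforehand. Nor were the fits without RI 5 that also used voom, the replicate block or the removal of length and GC trends. The alpha difference ran from −4.66 to −1.70 and the beta difference from −5.42 to −1.75, with limma adjusted p from 0.0184 to 0.336 and from 0.0218 to 0.376. The call was gained for alpha with a pseudocount of 5 (−3.29), upper-quartile scaling (−3.87), limma voom on recovered fragments (−4.66), without ICI 1 and RI 5 (−2.06) and with voom without RI 5 (−2.57). For beta it was gained with a pseudocount of 5 (−2.87), without ICI 1 and RI 5 (−1.98), with voom without RI 5 (−2.21) and with length and GC trends removed without RI 5 (−1.85). Leaving out 1 tumour at a time gave −4.37 to −2.52 for alpha and −4.02 to −2.18 for beta, and the call was gained in 1 of 8 such fits each, that without RI 5. The calls of Hba-a1 and Hbb-bt were lost in 19 and 20 of 28 settings. The causes were not tested.

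The count of genes changed was 2373, and 241 of 32098 without the filter, 280 with TPM, 4319 with array weights, 678 without ICI 1 and ICI 4, 0 without these and RI 5 (3429 at an unadjusted p under 0.05 by limma, 1551 called by voom), and 338 (without ICI 4) to 2699 (without ICI 1) with 1 tumour left out. Without RI 5 and with voom it was 1205, and with length and GC trends removed 1546. It was 979 without RI 1, 718 without RI 2 and 1003 without RI 5. Of the 2373, 1486 rose, of 3320 with upper-quartile scaling 1774 and of 3123 with median centring 1500. TPM moved the median difference of all genes to 0.11, against 0.0115 with FPKM, and gave −4.02 for alpha and −3.80 for beta. TPM divides by the summed FPKM of a library, which was highest in RI 4, and the part of RI 4 in this shift was not tested.

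With the replicate number as a block over the 3 shared numbers, which the check of deviations did not show to pair tumours, 22 genes were called, 3 with length and GC trends removed as well, and 43 without RI 5. The blocked difference was −2.64 for alpha and −2.06 for beta (limma adjusted p = 0.0863 and 0.0861), and it gained no call for either. The blocked ratios were −0.57 for alpha over beta, −0.14 for Hba-a1 over Hba-a2 and 0.00046 for Hbb-bs over Hbb-bt.

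The 3 ratios among globin copies, none of which passed, also changed sign under some settings. Alpha over beta was 0.061 in log2 and became −0.34 with 1 FPKM added and −0.071 without ICI 1 and RI 5, and ran from −0.34 to 0.33 with 1 tumour left out. Hba-a1 over Hba-a2 was 0.25 and became −0.14 and −0.32, and ran from −0.28 to 0.45. Hbb-bs over Hbb-bt ran from −0.48 to −0.0069 with 1 tumour left out. Alas2 had an exact permutation p of 0.0571 with any 1 tumour left out, the smallest such designs allow, so these say nothing about its stability. Depth limits Alas2 and the red cell surface genes, which rest on few fragments, and the globins of RI 5, which rest on 10.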

Other observations

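Some skeletal muscle genes rose in RI, in a list put together after the values were seen, so that its count is a description. Of 11 genes tested 4 rose (Ckm, Myh4, Mybpc2 and Atp2a1), 0 fell and 7 did not pass (median log2 difference 2.13), where 11.1% of all genes tested rose. Each of the 4 passed in 1 to 3 of 8 fits with 1 tumour left out. The groups overlapped, since the list summed to 148 to 690 FPKM in RI and 16.2 to 317 FPKM in ICI. Acta1, the actin of skeletal muscle, had 164, 337, 367 and 64.7 FPKM in RI 1, 2, 4 and 5, against 0.277, 35.4, 134 and 0.138 FPKM in ICI 1, 2, 3 and 4, with a limma adjusted p of 0.0819. ICI 1 and ICI 4, which held lung transcripts, were the lowest in Acta1, and RI 5, almost without globin, was the lowest RI tumour in it. The site of each tumour in the animal is not given in the labels.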
